A study of Mus musculus with 6 samples.

Results

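The miR-148 and miR-152 family was followed in small RNA sequencing of pancreatic islets, which hold the endocrine cells of the pancreas. The members were the rows named for both arms of the hairpins mir-148a, mir-148b and mir-152, which gave 6 of the 1011 listed miRNAs, and all 6 were among the 406 that passed the filter on low counts. Islets came from mice labelled HFD-fed or NCD-fed, with 3 libraries per diet, and the labels give no strain, age, sex or length of feeding and do not say whether a library is 1 animal or a pool. The title of the series names a miRNA in vesicles from visceral fat cells and insulin secretion. The rows were found by name, but the family as a topic was chosen by its earlier diet values, the log2 fold changes of HFD against NCD that were positive in all members. Levels, shares and arm ratios by diet are therefore given as a description, and the counts of members passing thresholds in the fit of the whole table are not evidence for or against a change. In addition, 3 libraries against 3 cannot give an exact permutation p below 0.1.

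A miRNA hairpin is cut into a short duplex, and 1 strand is kept in the silencing complex as the guide while the other, the passenger, is mostly degraded. Bases 2 to 8 of the guide, the seed, pair with sites in messenger RNAs and so set most of its targets, which is why miRNAs with 1 seed are treated as a family. The 3p arms of mir-148a, mir-148b and mir-152 are the guides and carry the same seed. They are known to repress Dnmt1, the maintenance DNA methyltransferase. miR-148a has been reported, with miR-24, miR-26 and miR-182, to sustain insulin expression in mouse beta cells.

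The mature sequences below, credited to RefSeq on GRCm38.p6, are shown because the shared seed defines the pool whose make-up is compared. All 6 equal the sequence in the deposited table. The seed is in capitals.
mmu-miR-148a-3p: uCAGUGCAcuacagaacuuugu
mmu-miR-148b-3p: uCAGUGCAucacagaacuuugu
mmu-miR-152-3p: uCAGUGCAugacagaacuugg
mmu-miR-148a-5p: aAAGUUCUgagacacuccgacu
mmu-miR-148b-5p: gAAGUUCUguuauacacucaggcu
mmu-miR-152-5p: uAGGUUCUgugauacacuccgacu

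The seed of the 3p arms, CAGUGCA, was found at bases 2 to 8 of 3 listed miRNAs and no others, so these 3 make up the whole seed pool of the table. With positions counted from 1 at the 5′ end and the first-named miRNA's base written first, miR-148a-3p differs from miR-148b-3p by C9U and U10C. It differs from miR-152-3p by C9U, U10G and U20G, and miR-152-3p is also 1 base shorter, at 21 against 22 bases. The 5p arms fall into 2 seeds, with AAGUUCU in miR-148a-5p and miR-148b-5p and AGGUUCU in miR-152-5p. No listed row was the reverse complement of a member over at least 18 bases. The sources used here do not say how reads matching more than 1 name were counted, so the rows for miR-148b-3p and miR-152-3p may hold some reads of the far more abundant miR-148a-3p.

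The 3 hairpins are printed with both arms in capitals, the 5p arm first, because the arm ratios below compare these stretches. They are encoded apart. Mir148a lies at chr6:51269812-51269910 on the minus strand, outside any other gene of GENCODE M21. Mir148b lies at chr15:103285125-103285221 on the plus strand in an intron of Copz1, and Mir152 at chr11:96850393-96850465 on the plus strand in an intron of Copz2. Copz1 and Copz2 encode the zeta subunits of the COPI vesicle coat.
Mir148a: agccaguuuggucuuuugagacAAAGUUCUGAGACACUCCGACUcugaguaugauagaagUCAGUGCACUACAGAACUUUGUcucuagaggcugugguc
Mir148b: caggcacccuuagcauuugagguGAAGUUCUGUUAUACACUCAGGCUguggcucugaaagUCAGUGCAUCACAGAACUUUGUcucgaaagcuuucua
Mir152: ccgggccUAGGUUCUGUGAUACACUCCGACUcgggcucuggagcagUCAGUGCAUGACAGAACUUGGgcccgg

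The complement of the seed followed by an A, TGCACTGA, is the strongest class of site for these guides. A search of the sense strand of the longest annotated 3′ UTR of each protein-coding gene found it in 824 of 21081, or 3.91%, and the 7 bases TGCACTG, which lie within it, in 13.8%. Of 10 genes looked up as reported targets, 7 held the 7 bases, 5 held all 8 and 3 held neither. The 8 bases are shown in capitals in 2 of those 5, each with 1 match, which were picked after the matches were seen and only illustrate what the seed reads. Messenger RNA was not measured in these samples. Dnmt1 lies on chromosome 9 and Gadd45a, a growth arrest gene repressed by miR-148a in mouse B cells, lies on chromosome 6.
Dnmt1: agagccccacgTGCACTGAtgtttttaacc
Gadd45a: ctgaaccaaatTGCACTGAagttttgaaat

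The HFD libraries held 9431818 to 11059628 counts and the NCD libraries 7166712 to 11172255. Levels are CPM, counts scaled to a common library size, on totals adjusted by TMM factors, which correct for libraries whose make-up differs. The factor of NCD 3 was 1.73 and those of the other 5 libraries ran from 0.84 to 0.995, so NCD 3 stands apart and values without it are given where it matters. The 6 fixed islet endocrine miRNAs were all tested, and their summed level was 449466 to 548917 CPM in HFD and 262255 to 602742 CPM in NCD libraries. The lowest of these was NCD 3, whose factor of 1.73 lowers all its CPM, so that value is not a share of its reads. Among miRNAs of other cells, the 6 acinar ones summed to 20.2 to 205.8 CPM in HFD and 112 to 418 CPM in NCD libraries, with 4 of the 6 at 0 in at least 1 library and none at 0 in all. The 2 endothelial ones summed to 299.8 to 434 CPM in HFD and 346 to 748 CPM in NCD libraries, and the 5 leukocyte ones to 6.18 to 13.3 CPM and 13.02 to 30.4 CPM. The liver miRNA miR-122-5p was at 34.1 to 68.3 CPM in the 3 HFD libraries and at 757, 61.3 and 78.6 CPM in NCD 1, 2 and 3.

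mmu-miR-148a-3p, the dominant guide of the family, ranked second of all tested miRNAs by mean level. It had 404686, 399260 and 276644 CPM in HFD 1, 2 and 3, and 243844, 337482 and 151616 CPM in NCD 1, 2 and 3. HFD 1 and HFD 2 were the highest and NCD 3 the lowest, while HFD 3 lay below NCD 2, so the diets overlapped. On raw library totals, the authors' deposited TPM, NCD 1 was the lowest instead, at 229356 against 262554 in NCD 3. The HFD libraries averaged 360197 ± 72409 CPM and the NCD libraries 244314 ± 92934 CPM (mean ± SD, n = 3 each), and the log2 fold change of HFD against NCD was 0.56 with a standard error of 0.37 in the edgeR fit. It was 0.30 without NCD 3 and 0.86 without NCD 2. In bulk islets a change in the number of cells of a type and a change in RNA per cell cannot be told apart.

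mmu-miR-148b-3p had 984, 949 and 777 CPM in HFD 1, 2 and 3 and 683, 930 and 301 CPM in NCD 1, 2 and 3. NCD 3 was again the lowest, and NCD 2 lay above HFD 3. The HFD mean was 903 ± 111 CPM and the NCD mean 638 ± 317 CPM (± SD, n = 3 each). Its log2 fold change, 0.50 ± 0.38 (SE), became 0.15 without NCD 3 and 0.87 without NCD 2.

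mmu-miR-152-3p had 595.5, 462 and 634 CPM in HFD 1, 2 and 3 and 384, 549 and 388 CPM in NCD 1, 2 and 3. On this scale HFD 3 was the highest library, and NCD 2 lay above HFD 2. HFD libraries averaged 564 ± 90.6 CPM and NCD libraries 440.1 ± 94.4 CPM (± SD, n = 3 each), and the log2 fold change was 0.36 ± 0.30 (SE). It was 0.21 without NCD 1 and 0.54 without NCD 2. In deposited TPM the means were 506.5 in HFD and 503.8 in NCD libraries, and NCD 3 was the highest, at 671 against 631 in HFD 3. By mean level the order was miR-148a-3p, miR-148b-3p, miR-152-3p, miR-148a-5p, miR-148b-5p and miR-152-5p. A read covers a whole miRNA, so these levels need no length term, but ligation favours some ends over others. miR-148b-3p and miR-152-3p were neighbours whose order changed with the library, with 1.65, 2.05 and 1.22 reads of miR-148b-3p per read of miR-152-3p in HFD 1, 2 and 3 and 1.78, 1.69 and 0.778 in NCD 1, 2 and 3. The other neighbours in this order did not change places in any library.

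**Figure D1:**
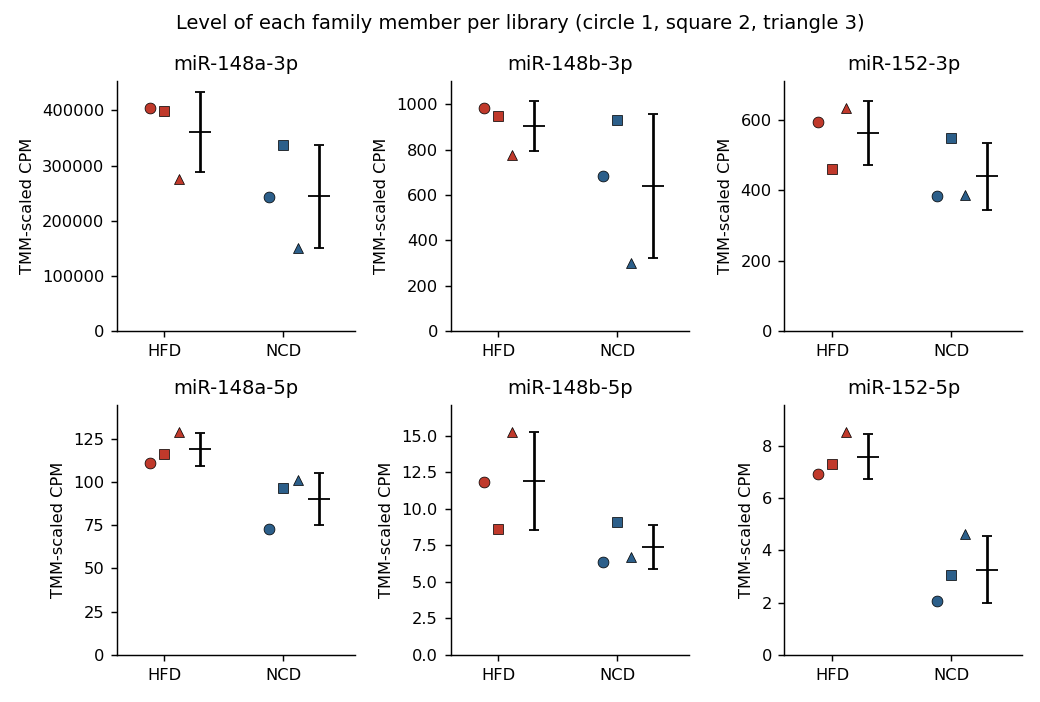
TMM-scaled CPM (y axis, from 0) of each family member in each library, HFD left and NCD right, with the mean and SD of 3 libraries beside the points. The 3p arms overlap between diets, and of the 5p arms miR-148a-5p (111 to 129 CPM in HFD, 73.0 to 101 CPM in NCD) and miR-152-5p (6.91 to 8.55 and 2.08 to 4.62 CPM) do not.

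The 5p arms, the passenger strands, were far scarcer. mmu-miR-148a-5p had 111, 116 and 129 CPM in HFD 1, 2 and 3 and 73.0, 96.3 and 101 CPM in NCD 1, 2 and 3. The diets did not overlap on this scale. HFD libraries averaged 119 ± 9.34 CPM and NCD libraries 90.1 ± 15.05 CPM (± SD, n = 3 each), and the log2 fold change was 0.40 ± 0.30 (SE). That order depended on the scaling: on raw library totals, the authors' deposited TPM ran from 93.3 to 128 in the HFD libraries and reached 175 in NCD 3, the highest of all, and with library totals as the only scaling the log2 fold change was -0.04. Without NCD 1 it was 0.20 with TMM factors.

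mmu-miR-148b-5p rested on few reads, from 43 to 168 per library. It had 11.8, 8.58 and 15.3 CPM in HFD 1, 2 and 3 and 6.38, 9.12 and 6.68 CPM in NCD 1, 2 and 3, with NCD 2 above HFD 2. HFD libraries averaged 11.9 ± 3.35 CPM and NCD libraries 7.39 ± 1.5 CPM (± SD, n = 3 each). The log2 fold change was 0.69 ± 0.42 (SE), and 0.44 without HFD 3.

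mmu-miR-152-5p was the scarcest member, with 62, 58 and 94 reads in HFD 1, 2 and 3 and 14, 30 and 65 in NCD 1, 2 and 3. These reads gave 6.91, 7.32 and 8.55 CPM in HFD and 2.08, 3.07 and 4.62 CPM in the NCD libraries. The diets did not overlap on this scale. The HFD mean was 7.59 ± 0.854 CPM and the NCD mean 3.26 ± 1.28 CPM (± SD, n = 3 each), and the log2 fold change of 1.15 ± 0.46 (SE) was the largest of the family. It was 0.88 without NCD 1 and 1.52 without NCD 3. In deposited TPM, HFD 1 was at 5.81 and NCD 3 at 8.004, so on that scale the diets overlapped.

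In the whole-table fit (edgeR quasi-likelihood test, Benjamini-Hochberg over 406 miRNAs, threshold 0.05), 0 of the 6 members were called, where 0.246% of all tested miRNAs were. DESeq2 and limma-voom called 0 members each, where 0.739% and 0.246% of all tested miRNAs were called. At an unadjusted p under 0.05 there was 1 member by each of these tools, where 10.1% of all miRNAs were by edgeR, 12.1% by DESeq2 and 8.37% by limma-voom. There were 0 members with library totals only or with limma-trend on log2(TPM + 1). When 1 library was left out there were 0 to 2 members, with 2 without NCD 2 and 1 without NCD 3. The share of all miRNAs was not computed for these other settings, so their counts have no background. As the family was chosen by this contrast, these counts are not a test of it. The diets did not overlap in 2 of 6 members, both higher in HFD, where 10.3% of all tested miRNAs did not overlap in that direction. The log2 fold change was above 0 in 6 of 6 members, with a median of 0.53, against 51.5% and a median of 0.02 over all tested miRNAs. This shared direction is what the family was picked for, and nothing is read from it.

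Scaling moved the values of the family and of the whole table together. With library totals only, the middle (median) log2 fold change over the table was -0.37, and the members had 0.27 for miR-148a-3p, 0.28 for miR-148b-3p, 0.0076 for miR-152-3p, -0.04 for miR-148a-5p, 0.35 for miR-148b-5p and 0.72 for miR-152-5p. Set against the median of all miRNAs, these were 0.64, 0.64, 0.37, 0.33, 0.71 and 1.08. The same differences with TMM factors were 0.54, 0.49, 0.34, 0.38, 0.68 and 1.13.

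**Figure D2:**
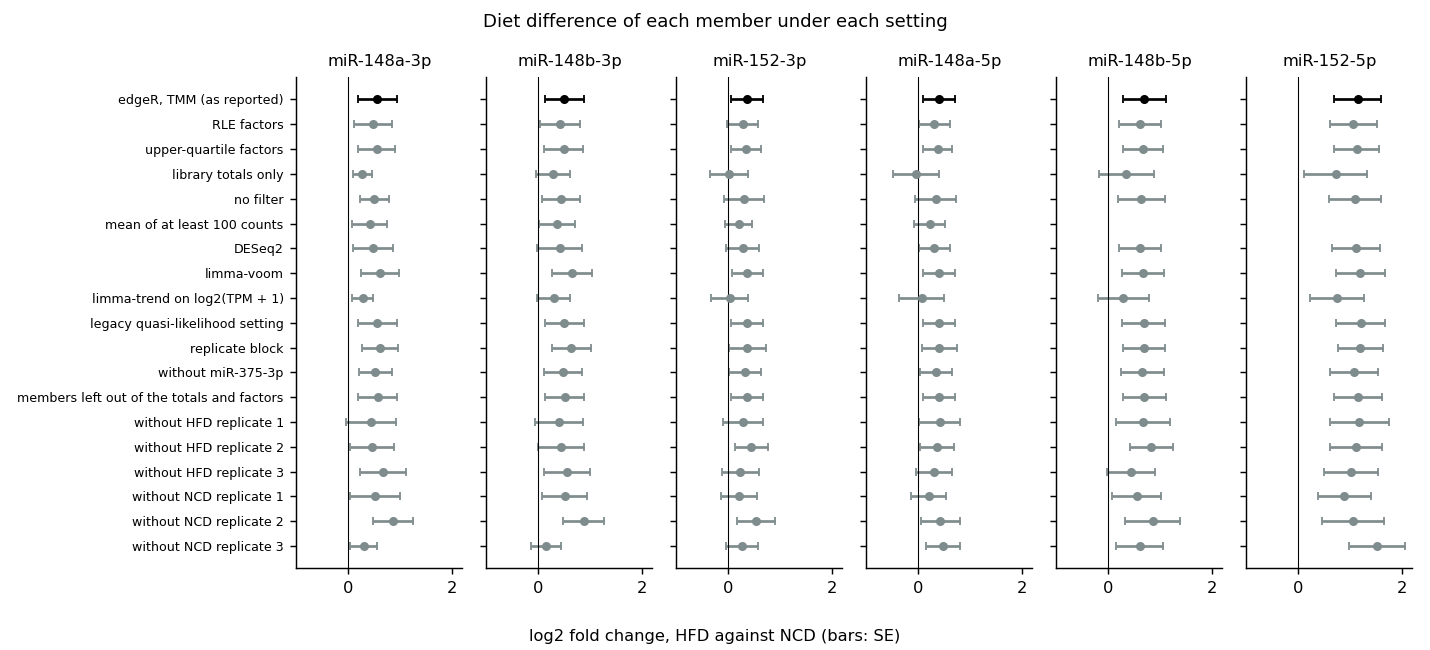
Log2 fold change of HFD against NCD (x axis, bars are standard errors) of each member under each setting (rows); the top row is the edgeR fit with TMM factors, and members left out by a filter have no point. All points lie above 0 but that of miR-148a-5p with library totals only, at -0.04, and 0 of the points passed an adjusted p of 0.05.

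The shared seed was a large part of all reads. The pool of the 3 guides took 34.2%, 33.7% and 27.7% of the raw counts in HFD 1, 2 and 3 and 23.04%, 29.6% and 26.4% in NCD 1, 2 and 3. The half-width of the 95% exact (Clopper-Pearson) interval was at most 0.0308 points, which covers counting error only, as no molecular identifiers are named that would tell repeat reads of 1 molecule apart. NCD 2 lay above HFD 3, and the pool averaged 31.8% ± 3.62 in HFD libraries and 26.3% ± 3.28 in NCD libraries (± SD, n = 3 each), a difference of 5.48 points. Without NCD 1 the difference was 3.83 points. Among reads other than miR-375-3p the difference was 4.48 points, against a spread between libraries of 6.42 points on that denominator. The TMM-scaled level of the pool, which is not a share, averaged 361664 ± 72461 CPM in HFD and 245392 ± 93329 CPM in NCD libraries (± SD, n = 3 each).

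miR-148a-3p filled the pool in every library. It made up 99.6%, 99.6% and 99.5% of the pool in HFD 1, 2 and 3 and 99.6%, 99.6% and 99.5% in NCD 1, 2 and 3. The mean share was 99.58% ± 0.0813 in HFD libraries and 99.56% ± 0.00944 in NCD libraries (± SD, n = 3 each), a difference within the spread of the HFD libraries. A change in either of the other guides thus moved the pool by a small part of 1%.

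The rest of the pool was divided differently between libraries. miR-148b-3p took 0.242%, 0.237% and 0.279% in HFD 1, 2 and 3 and 0.279%, 0.274% and 0.198% in NCD 1, 2 and 3. NCD 3 was the lowest, and the means of 0.253% ± 0.0232 and 0.2504% ± 0.0455 (SD, n = 3 each) differed by 0.00238 points. miR-152-3p took 0.147%, 0.115% and 0.228% in HFD 1, 2 and 3 and 0.157%, 0.162% and 0.254% in NCD 1, 2 and 3. HFD 3 and NCD 3 were the highest libraries for miR-152-3p, each above the 0.162% reached by the others, and the counting intervals, at most 0.00677 points to either side, were narrower than that gap. The means of 0.163% ± 0.0583 in HFD libraries and 0.191% ± 0.0550 in NCD libraries (± SD, n = 3 each) differed by -0.0277 points, less than either SD. The sign of these differences in pool share turned when 1 library was left out, to -0.00675 points for miR-148a-3p without HFD 2, to -0.0109 and -0.0239 points for miR-148b-3p without HFD 3 and without NCD 3, and to 0.00402 points for miR-152-3p without NCD 3.

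**Figure D3:**
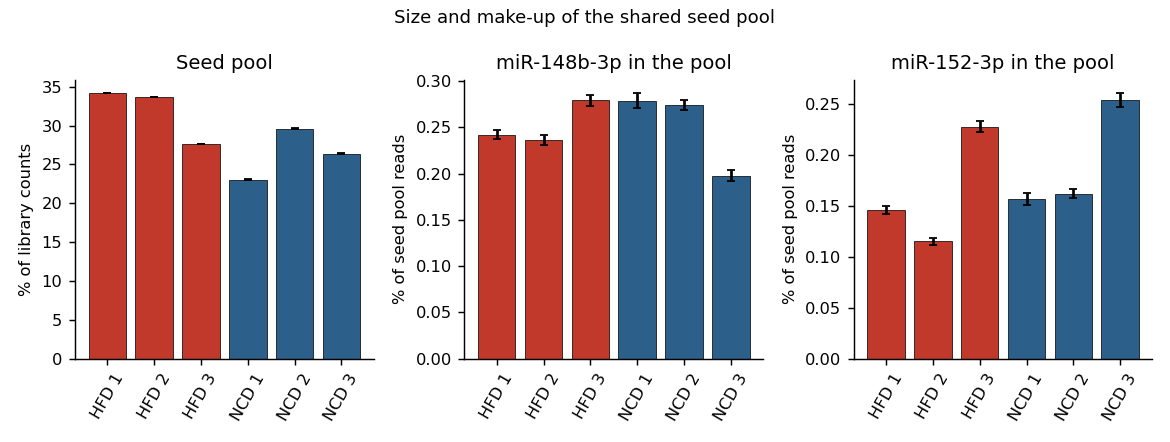
Seed pool as a percentage of raw library counts (left), and miR-148b-3p (middle) and miR-152-3p (right) as percentages of the pool, per library, HFD left of NCD; bars start at 0 and whiskers are 95% exact binomial intervals. The pool ranges from 23.04% to 34.2%, miR-148b-3p is lowest in NCD 3 at 0.198%, and miR-152-3p is highest in HFD 3 and NCD 3 at 0.228% and 0.254%.

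The level of miR-148a-3p was also set against miR-375-3p, the other dominant islet miRNA, as a ratio that needs no scaling. There were 1.14, 0.957 and 1.19 reads of miR-148a-3p per read of miR-375-3p in HFD 1, 2 and 3 and 0.523, 0.879 and 0.887 in NCD 1, 2 and 3. The diets did not overlap in this ratio and NCD 1 was the lowest. The ratio depends on both miRNAs, and miR-148a-3p itself overlapped between diets in CPM. In HFD 1, 2 and 3 miR-375-3p had 353502, 417285 and 233385 CPM. In NCD 1, 2 and 3 it had 465924, 383928 and 170905 CPM. Of the 405 tested miRNAs, members included, set against miR-375-3p in this way, 3.21% did not overlap with HFD higher and 3.21% with HFD lower. The ratio averaged 1.096 ± 0.122 over HFD libraries and 0.763 ± 0.208 over NCD libraries (± SD, n = 3 each).

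The balance of arms was compared between the hairpins within each library, a comparison that does not use the diets. The log2 ratio of 5p to 3p reads, with a prior count of 0.5 per arm, averaged -11.44 ± 0.52 for mir-148a, -6.28 ± 0.57 for mir-148b and -6.65 ± 0.65 for mir-152 (SD over 6 libraries). The ratio of mir-148a was lower than that of mir-148b in 6 of 6 libraries, by a mean log2 difference of -5.16 ± 0.21 (SD), which is 35.8-fold, with p = 0.03125 in a two-sided exact sign-flip permutation test. Against mir-152 it was lower in 6 of 6 libraries, by -4.79 ± 0.68 (SD) or 27.7-fold, with the same exact p of 0.03125, the smallest that 6 libraries allow. Both had a Benjamini-Hochberg adjusted p of 0.0469 over the 3 pairs of hairpins. mir-152 minus mir-148b gave -0.37 ± 0.65 (SD), lower in 5 of 6 libraries, with an exact permutation p of 0.25 and an adjusted p of 0.25, so a difference was not detectable. HFD 2 was the 1 library where mir-152 had the higher ratio, and without it the mean difference was -0.60. The 5 libraries left share a sign, which fixes the exact permutation p, adjusted over the 3 pairs, at 0.0625, the smallest possible. That value follows from which library was left out, and nothing is concluded from it. Leaving out each other library instead gave -0.43 to -0.26, with adjusted exact permutation p of 0.3125 to 0.5. These are ratios of reads, and library preparation can favour either end of a duplex.

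By library, the 5p arm of mir-148a made up 0.0274%, 0.0291% and 0.0467% of the reads of its hairpin in HFD 1, 2 and 3 and 0.0299%, 0.0285% and 0.0666% in NCD 1, 2 and 3. HFD 3 and NCD 3 stood above the other 4 libraries, and their 95% exact intervals, 0.0443% to 0.0491% in HFD 3 and 0.0632% to 0.0702% in NCD 3, did not reach them. mir-148b had the same pair of highest libraries, at a higher level, with 1.19%, 0.897% and 1.93% in HFD 1, 2 and 3 and 0.925%, 0.972% and 2.17% in NCD 1, 2 and 3. The HFD minus NCD difference in the log2 ratio was -0.20 for mir-148a and 0.02 for mir-148b, against spreads between libraries of 0.57 and 0.63. Without NCD 3 these were 0.19 and 0.42, and without HFD 3 they were -0.45 and -0.28, so that single libraries set the sign of both.

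The 5p arm of mir-152 followed another pattern. It made up 1.15%, 1.56% and 1.33% of the reads of its hairpin in HFD 1, 2 and 3 and 0.538%, 0.557% and 1.18% in NCD 1, 2 and 3. NCD 1 and NCD 2 lay below all HFD libraries, while NCD 3 lay just above HFD 1, with 95% exact intervals of 0.88% to 1.47% in HFD 1 and 0.911% to 1.5% in NCD 3. The log2 ratio averaged -6.20 ± 0.23 over HFD libraries and -7.10 ± 0.63 over NCD libraries (± SD, n = 3 each). The difference of 0.91 is a description only, with as few as 14 reads of the 5p arm, in NCD 1. That difference was 1.27 without NCD 3 and 0.72 without NCD 1. Of the summed 5p reads of the 3 hairpins, mir-152 gave 5.33%, 5.53% and 5.59% in HFD 1, 2 and 3 and 2.55%, 2.83% and 4.11% in NCD 1, 2 and 3. mir-148a gave 85.6%, 88.0% and 84.4% in HFD 1, 2 and 3 and 89.6%, 88.8% and 89.9% in NCD 1, 2 and 3. These shares need no scaling, and their values did not overlap between diets, higher in HFD for mir-152 and lower in HFD for mir-148a. Their 95% exact intervals did overlap, at 4.11% to 6.78% in HFD 1 and 3.19% to 5.21% in NCD 3 for mir-152. For mir-148a they were 85.9% to 89.9% in HFD 2 and 86.7% to 90.6% in NCD 2. The shares are parts of 1 sum and do not move independently. In TMM-scaled CPM miR-148a-5p was higher in HFD, at 111 to 129 against 73.0 to 101 in NCD. Of all 406 tested miRNAs set against the same summed 5p reads, 1.48% did not overlap with HFD higher and 18% with HFD lower, and nothing is read from the non-overlap of members chosen by their diet values.

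**Figure D4:**
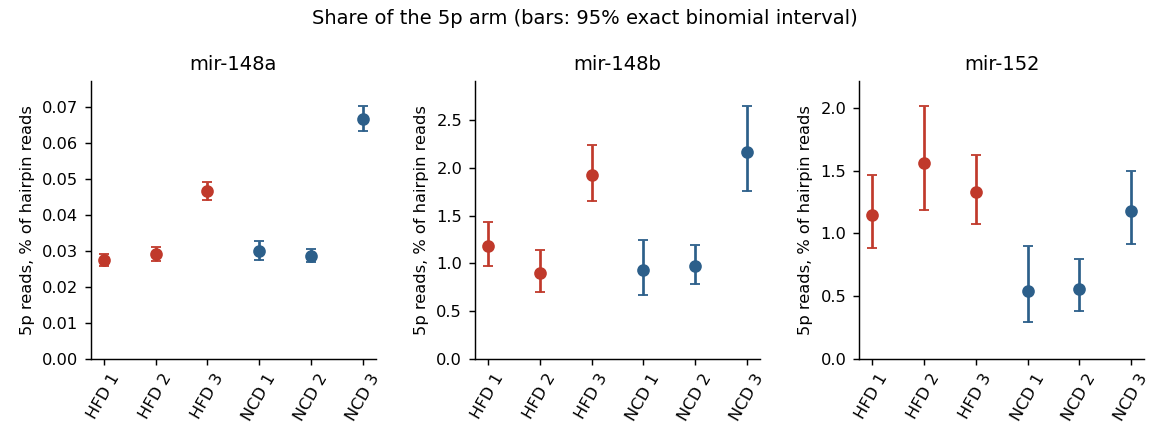
Reads of the 5p arm as a percentage of all reads of its hairpin (y axis, from 0, with a separate scale for each hairpin) per library, HFD left of NCD, with 95% exact binomial intervals. mir-148a and mir-148b are highest in HFD 3 and NCD 3 (0.0467% and 0.0666%, 1.93% and 2.17%), while mir-152 is lowest in NCD 1 and NCD 2 (0.538% and 0.557%).

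The libraries with the highest 5p shares of mir-148a and mir-148b and the highest pool share of miR-152-3p, HFD 3 and NCD 3, also had the highest summed acinar miRNAs, at 205.8 and 418 CPM against 20.2 to 174 CPM in the other 4. Of the acinar list 6 of 6 were listed and 3 tested, and its leading member miR-217-5p reached 166 CPM in HFD 3 and 315 CPM in NCD 3. The part of acinar cells in these ratios was not tested. NCD 1, the library with the lowest share of raw counts in the seed pool and the lowest ratio to miR-375-3p, had miR-122-5p, the liver miRNA, at 757 CPM. It was also the highest library for the summed endothelial and leukocyte miRNAs, at 748 and 30.4 CPM, and for the islet endocrine ones, at 602742 CPM. Its acinar sum was 112 CPM, which was not the highest. The part of these cell types was not tested either.

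The members were then compared by their pattern over libraries, as the root mean square difference, over 6 libraries, between log2 CPM values each centred on the miRNA's own mean. A value of 0 means the same pattern. The other members lay at 0.18 (miR-148b-3p), 0.39 (miR-152-3p), 0.47 (miR-148b-5p), 0.48 (miR-148a-5p) and 0.74 (miR-152-5p) from miR-148a-3p. The median of the 109 tested non-members with a mean of at least 100 CPM was 0.49, and 2 of those 109 lay closer than miR-148b-3p, 34 closer than miR-152-3p and 53 closer than miR-148a-5p. The value for miR-148b-3p is that of its row, and the part of any miR-148a-3p reads counted there was not tested.

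By the same measure the most alike non-members were miR-379-5p at 0.15, miR-30f at 0.17, miR-25-3p at 0.18, miR-598-3p at 0.21 and miR-200a-5p at 0.23, counting rows that are reverse complements of each other once. Each had its lowest TMM-scaled level in NCD 3, as miR-148a-3p did. That place depends on the TMM factor of NCD 3, as in deposited TPM miR-148a-3p was lowest in NCD 1, at 229356 against 262554 in NCD 3. miR-379-5p had 5161, 4351 and 3747 CPM in HFD 1, 2 and 3 and 3191, 4607 and 2353 CPM in NCD 1, 2 and 3. The log2 fold changes of these 5 ran from 0.33 to 0.63, and 0 of them were called by edgeR, where 0.246% of all tested miRNAs were.

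**Figure D5:**
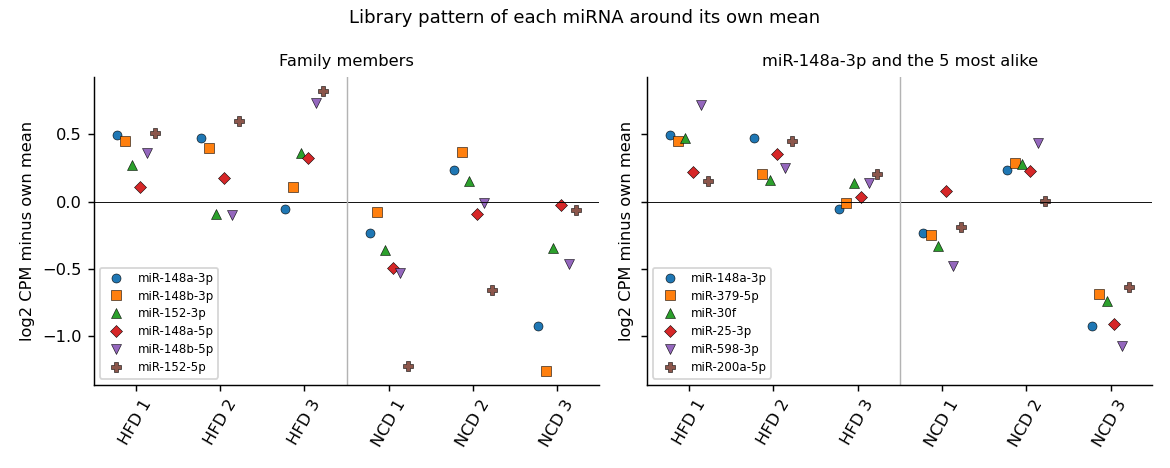
Log2 CPM minus the miRNA's own mean over 6 libraries (y axis) per library, HFD left of NCD, for the 6 members (left) and for miR-148a-3p with the 5 most alike miRNAs (right); each marker is 1 miRNA. In these TMM-scaled values miR-148a-3p and miR-148b-3p are lowest in NCD 3, at -0.92 and -1.26, and miR-152-5p is lowest in NCD 1, at -1.22.

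Other miRNAs with related roles were taken as fixed lists, beside which 51.5% of all tested miRNAs had a positive log2 fold change, with a median of 0.02. Over all tested miRNAs, edgeR called 0.246%. Of the 4 others reported to sustain insulin expression in mouse islets, 4 were tested, 0 were called by edgeR in either direction and 4 had positive log2 fold changes, with a median of 0.24. These were 0.36 ± 0.29 (SE) for miR-24-3p, whose reads also appear under miR-3074-5p, 0.29 ± 0.34 for miR-26b-5p, 0.18 ± 0.32 for miR-182-5p, which is also on the islet list, and 0.17 ± 0.31 for miR-26a-5p. Their summed level was 12818, 10830 and 16444 CPM in HFD 1, 2 and 3 and 11034, 13786 and 10091 CPM in NCD 1, 2 and 3, which is well below that of miR-148a-3p in each library. Of the miR-29 guides, which are known from human cells to target the DNA methyltransferases DNMT3A and DNMT3B, 3 of 3 were tested and 0 were called in either direction. Their log2 fold changes were 0.26 ± 0.35 (SE) for miR-29a-3p, 0.35 ± 0.36 for miR-29b-3p and -0.15 ± 0.50 for miR-29c-3p.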

How the data were processed

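Per the file headers, the deposited table holds raw read counts per mature miRNA and library, and the authors' TPM, which equals CPM on each library's total to within a relative difference of 4.61e-09. Total RNA was column-purified and libraries were made with a NEBNext small RNA kit, per the labels' protocols. No source used here names the aligner, counting tool, build or miRNA annotation. The members and lists were chosen with earlier results of these data known. Members are the 6 rows named for the family.

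The whole table was fitted with edgeR 4.0.16 (R 4.3.3): filterByExpr with a minimum count of 10, TMM factors, and the quasi-likelihood test with its bias-corrected (non-legacy) deviances and diet as the only term. Standard errors are the log2 fold change over the root of the F statistic. A count of 0 allows 0.213 to 0.445 CPM, as 3 counts of the scaled total. Arm ratios used a prior count of 0.5 and an exact sign-flip test (Python 3.11.15). Alternatives were RLE, upper-quartile and no factors, other filters, DESeq2 1.42.0, limma 3.58.1 (voom, and trend on log2(TPM + 1)), a replicate block, tables without miR-375-3p or with the members out of the totals, other prior counts and each library left out. The legacy setting was added after seeing the data, and the non-legacy one was kept as the main fit to follow earlier processing of this table, after results of both had been seen. Of the genes looked up for seed matches, 1 is not reported here. miRNAs were named by a rule: the members, rows sharing the seed, the 5 most alike in pattern with at least 100 CPM, miR-375-3p and the lists. The labels do not say that libraries are separate animals, so the spread may be technical.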

Additional observations from a re-analysis of the deposited data

How the results depend on the processing

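The number of miRNAs called between diets over the whole table was 1. It was 0 with library totals only and with limma-trend on log2(TPM + 1), 8 without a filter (3 higher and 5 lower in HFD), 3 with DESeq2, and 0 to 4 when 1 library was left out, with 0 without NCD 1, 4 without NCD 2 and 3 without NCD 3; the cause was not tested. No member was called under any of the 18 alternatives. The log2 fold change of miR-148a-5p reversed to -0.036 with library totals only, and those of the other members stayed above 0 under each alternative. Filtering at a mean of 100 counts left out miR-148b-5p and miR-152-5p. The difference in seed pool share was 11.6 points on TMM-scaled totals against 5.48 on raw totals, and 3.83 to 7.57 points when 1 library was left out. The arm ratio difference of mir-148a minus mir-148b ran from -5.20 to -5.10 and that of mir-148a minus mir-152 from -4.92 to -4.60 when 1 library was left out, and that of mir-152 minus mir-148b from -0.60 to -0.26. The adjusted p of the first 2 pairs was then 0.0625 to 0.0938, as 5 libraries cannot give an exact p below 0.0625. Depth limits miR-152-5p and miR-148b-5p, with as few as 14 and 43 reads. The replicate numbers were not taken as pairs, since the labels do not say that they pair libraries. Deviations of same-numbered libraries correlated at 0.17, -0.24 and 0.35 across miRNAs for replicates 1, 2 and 3. Libraries of different numbers were not compared in this way, so these values cannot decide pairing. With the replicate number as a block the count of called miRNAs was 1 and the log2 fold change of miR-148a-3p was 0.61.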
